A study of Mus musculus with 12 samples.

Results

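The major urinary protein (Mup) genes are a family of near-identical secreted lipocalins made in the mouse liver, and 10 of them are described here: Mup1, Mup2, Mup3, Mup7, Mup11, Mup12, Mup15, Mup17, Mup20 and Mup21. They were taken by name from tables of 48440 gene rows, in which 48 rows carry a Mup name, 21 of them genes and 27 pseudogenes. All 10 passed the filter on low counts, as did 33 of the 48 Mup rows and 15244 rows in all. The members were chosen by name after total and unique gene reads per library had been seen, so the share of unique reads is given as a description with no test.

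Poly(A) RNA was sequenced from the livers of male C57BL/6 mice aged 8 weeks on normal chow in a cycle of 12 h of light and 12 h of dark. Wild-type mice (WT) were compared with transgenic mice (TG) that overexpress E4BP4, the product of Nfil3, in the liver, each at ZT2 and at ZT14, where ZT is the number of hours since the lights came on. Each of the 4 groups held 3 libraries. No label says that the libraries of a group came from separate animals, so p-values measure the spread between these libraries, which may be technical. The sources used here name neither the promoter that drives the transgene nor the number of founder lines.

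MUPs fold into a beta-barrel that carries small volatile pheromones. Hepatocytes secrete them into the blood, from which they pass into the urine, and salivary and lacrimal glands also make some of them. Male mice make far more than females, because pulses of growth hormone act on the hepatocyte through STAT5. The genes sit in a cluster whose central copies are nearly the same in sequence, while peripheral copies such as Mup3, Mup20 and Mup21 have diverged further. Mup20 encodes darcin, a male pheromone that attracts females, and circulating MUP1 has been tied to glucose metabolism in mice. E4BP4 is a bZIP repressor that binds D-box elements of clock-controlled genes, and Zhx2 is a transcription factor needed for full Mup expression in the adult male mouse.

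In the deposited coordinates, which match GRCm38, 47 of the 48 Mup rows lie in 2.19 Mb of chromosome 4, and all 10 genes are on the minus strand. In order along the chromosome, Mup7 lies at chr4:60066469-60070475, Mup2 at chr4:60135932-60154289, Mup1 at chr4:60498012-60501960, Mup11 at chr4:60658466-60662411 and Mup12 at chr4:60737383-60741326. Mup15 follows at chr4:61435790-61439743 and Mup17 at chr4:61591929-61595871. At the end of the cluster are Mup20 at chr4:62050234-62054158, Mup3 at chr4:62083476-62087342 and Mup21 at chr4:62147932-62150863. Their principal transcripts in GENCODE M21 have 7 exons, or 6 in Mup21, and coding sequences of 540 to 552 bases.

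A stretch of 60 coding bases shows how alike the copies are. It covers coding positions 19 to 78 of Mup7 and the aligned bases of the others, read 5′ to 3′ on the coding strand from the GENCODE M21 transcripts. Capitals mark bases that differ from Mup7. Mup11, Mup15 and Mup17 have the same 60 bases as Mup2, so 7 distinct sequences remain.
Mup7: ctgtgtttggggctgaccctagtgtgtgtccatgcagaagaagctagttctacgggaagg
Mup12: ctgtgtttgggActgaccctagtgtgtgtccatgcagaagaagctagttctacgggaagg
Mup2: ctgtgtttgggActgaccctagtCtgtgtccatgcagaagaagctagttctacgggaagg
Mup1: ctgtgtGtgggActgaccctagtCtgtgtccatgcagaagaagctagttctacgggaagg
Mup20: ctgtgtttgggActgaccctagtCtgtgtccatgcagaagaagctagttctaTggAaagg
Mup3: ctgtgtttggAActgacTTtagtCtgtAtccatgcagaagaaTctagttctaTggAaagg
Mup21: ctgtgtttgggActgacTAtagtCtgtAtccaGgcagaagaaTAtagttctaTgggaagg

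Over whole coding sequences, the 7 central copies (Mup1, Mup2, Mup7, Mup11, Mup12, Mup15 and Mup17) were 98.5% to 99.8% identical in all 21 pairs, which is 1 to 8 differing bases a pair. No pair was identical. Mup20 was 90.4% to 91.3% identical to those 7, Mup21 84.1% to 85.0% and Mup3 83.9% to 84.8%. Of the 50-base windows along each transcript, 95.3% occurred in no other Mup transcript for Mup20, 85.1% for Mup3 and 80.9% for Mup21. The same share was 21.9% for Mup17, 14.6% for Mup12, 11.01% for Mup11, 5.69% for Mup7 and 5.24% for Mup1, and it was 0 for Mup2 and Mup15. The sources used here give no read length, so 50 bases is a yardstick only.

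Upstream sequence was available for 7 of the 10 genes in a RefSeq promoter table (GRCm38.p6), which gives 250 bases before and 50 after each annotated start. In 6 of these 7 windows the letters TATATAAGG occur once, on the gene's strand, and not at all in that of Mup7. The Mup7 window ends at chr4:60070426 with gacccatacgggaagagggaaa, letters that lie upstream of TATATAAGG in Mup2, Mup11, Mup15 and Mup17. The stretch that holds TATATAAGG in those copies is thus outside the Mup7 window, which cannot show whether Mup7 has it. The letters TATATAAGG are found on either strand in 0.34% of 27025 promoters in the table. This motif was chosen after the Mup sequences had been seen. The 90 bases that end with it are shown so that copies whose total reads varied much between libraries (Mup15, Mup17) can be set beside copies that varied less (Mup2, Mup11, Mup3, Mup21). The place of Mup11 depends on the kind of read, since its unique reads varied more than its total reads, as given below. Capitals mark TATATAAGG. The windows lie at chr4:60139875-60139964 for Mup2, chr4:60662389-60662478 for Mup11, chr4:61439721-61439810 for Mup15, chr4:61595849-61595938 for Mup17, chr4:62087320-62087409 for Mup3 and chr4:62150841-62150930 for Mup21.
Mup2: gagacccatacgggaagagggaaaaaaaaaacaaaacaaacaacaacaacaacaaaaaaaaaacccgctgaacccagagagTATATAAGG
Mup11: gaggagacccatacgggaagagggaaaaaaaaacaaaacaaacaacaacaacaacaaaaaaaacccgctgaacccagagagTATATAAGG
Mup15: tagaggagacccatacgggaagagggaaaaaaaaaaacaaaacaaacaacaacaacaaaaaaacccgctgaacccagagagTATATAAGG
Mup17: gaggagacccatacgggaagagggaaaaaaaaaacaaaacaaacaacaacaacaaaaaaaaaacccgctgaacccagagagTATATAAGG
Mup3: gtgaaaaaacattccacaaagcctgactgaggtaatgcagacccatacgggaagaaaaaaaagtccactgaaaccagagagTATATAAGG
Mup21: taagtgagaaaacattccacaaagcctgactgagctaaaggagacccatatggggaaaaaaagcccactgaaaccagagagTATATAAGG

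The run of adenines upstream of the motif differs in length between copies, with a longest unbroken run of 10 in Mup2 and Mup17, 11 in Mup15, 9 in Mup11, 8 in Mup3 and 7 in Mup21. Aligned over 297 bases, the promoter windows of Mup15 and Mup17 had 0 differing bases, gaps aside. Mup11 differed from Mup15 at 1 of 275 aligned bases and Mup2 from Mup15 at 2 of 292, so this near identity was not limited to the pair. Mup3 and Mup15 differed at 31 of 251. The annotated start sites are not at the same place in each copy, since the motif begins 27 bases before the start in Mup2 but 2 bases before it in Mup11. Other letters were searched on both strands: TTCNNNGAA, the spacing bound by STAT5, TTGCNNCAA, a spacing bound by C/EBP factors, and the D-box forms TTATGTAA, TTACGTAA and TTACATAA. They occur in 8.47%, 2.12% and 1.06% of all promoters in the table, and none of the 14 Mup genes with a window in the table held any of them. TATAAA, in 14.2% of all promoters, was found in Mup4 and Mup6 and in none of the 7. This says only that these letters are not in these windows.

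The share of a gene's reads counted as unique was highest in the genes least like the central copies. Unique gene reads made up 99.9% of the total in Mup3 and at least 99.8% in Mup21 over the 12 libraries. Mup20, the darcin gene, followed with 73.1% to 75.8% and Mup17 with 51.7% to 61.9%. The remaining central copies had few unique reads, from 27.9% to 29.5% in Mup7 and 23.0% to 26.3% in Mup2 to 17.1% to 19.9% in Mup12, and lowest in Mup11 with 4.48% to 16.1%. Over all genes tested the median was 99.5%, and 10.2% of them had under 50% unique reads. The sources used here do not say how the authors shared reads that fit several copies, so total reads of the 7 central copies rest on an unknown assignment.

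**Figure D1:**
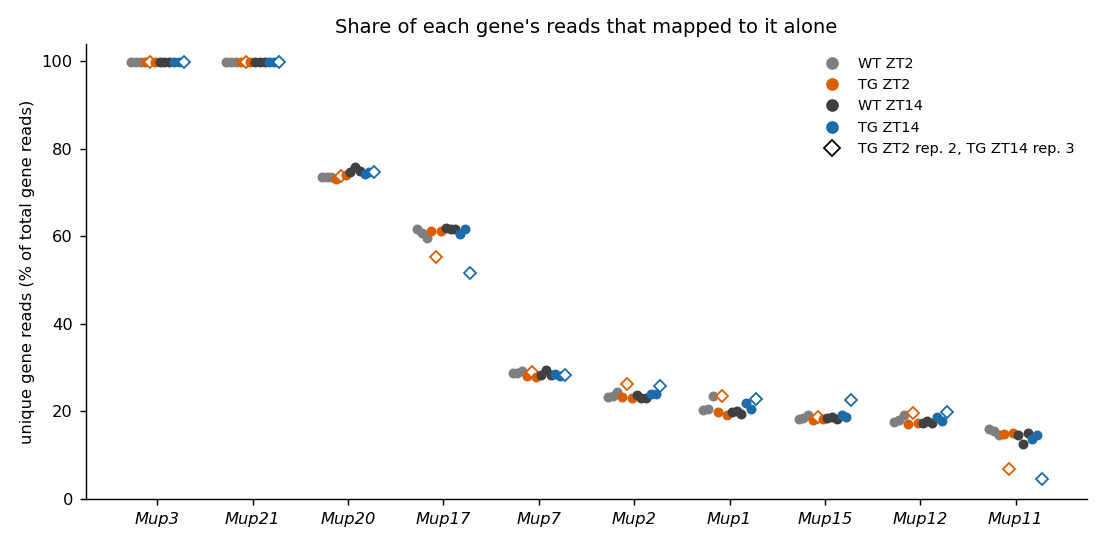
Unique gene reads as a percent of total gene reads (vertical axis) for each of the 10 Mup genes, 1 point per library, coloured by group. Mup3 and Mup21 sit near 100% and the central copies other than Mup17 below 30%, and the open diamonds mark TG ZT2 replicate 2 and TG ZT14 replicate 3, where Mup11 and Mup17 are lowest.

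Mup11 had a smaller unique share in 2 libraries than in the others. It was 6.82% (6.58% to 7.07%) in TG ZT2 replicate 2 and 4.48% (4.26% to 4.70%) in TG ZT14 replicate 3, with 95% Wilson intervals that cover counting error only. In the other 10 libraries it was 12.6% to 16.1%. Mup17 also had its lowest shares there, 55.4% and 51.7% against 59.7% to 61.9% elsewhere. Mup7, Mup20 and Mup21 stayed within the range of the other 10 there. Mup2, Mup12 and Mup1 had their highest or near-highest shares in these libraries, as did Mup15 in TG ZT14 replicate 3 with 22.6%.

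Those 2 libraries stood apart in the Mup family as a whole. At ZT2 all 48 Mup rows together took 7.61%, 6.72% and 6.99% of total gene reads in the WT libraries against 7.42%, 2.49% and 5.89% in the TG libraries. At ZT14 they took 6.01%, 5.75% and 6.32% against 4.66%, 5.78% and 1.69%. The low values belong to TG ZT2 replicate 2 and TG ZT14 replicate 3, and the next lowest library was at 4.66%. The 10 genes made up 58.8% to 66.7% of the Mup reads in every library. In bulk tissue, fewer cells of a type and less RNA per cell cannot be told apart.

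**Figure D2:**
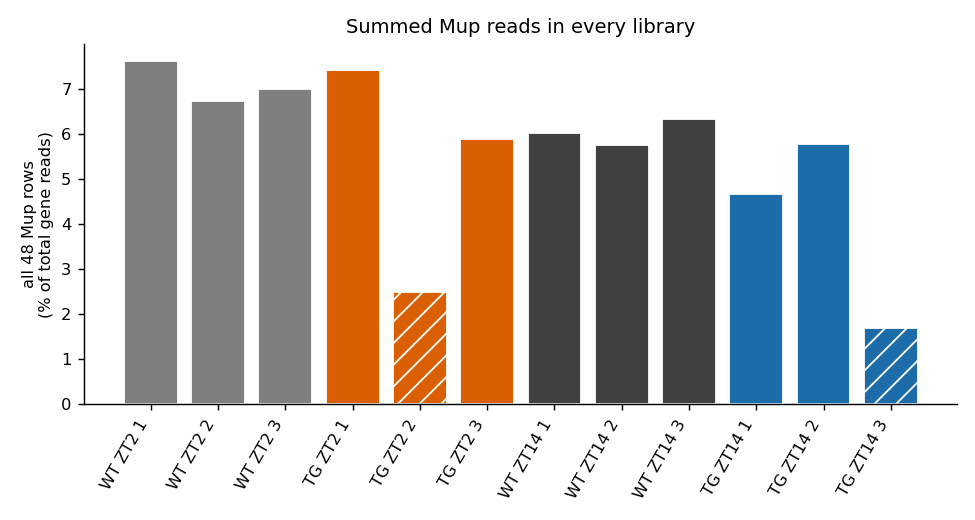
Reads of all 48 Mup rows as a percent of total gene reads in each of the 12 libraries, bars coloured by group and hatched for the 2 libraries that stand apart. Those bars reach 2.49% and 1.69%, and the other 10 lie between 4.66% and 7.61%.

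Libraries held 16035121 to 23981021 total gene reads, and the 2 low in Mup reads were not the shallowest, with 17791495 and 23981021. In every pair of replicates the chi-square per degree of freedom, 9.48 to 88.5, was above that of counting noise. Nfil3 was at 48.7, 29.3 and 37.6 CPM in WT and 71.0, 69.7 and 62.5 in TG at ZT2, and at 28.1, 40.4 and 24.6 and 63.8, 93.9 and 77.9 at ZT14. Every TG library was above every WT library of its time, and the edgeR difference passed the test at ZT14 (2.53-fold, adjusted p = 0.0306) but not at ZT2 (1.75-fold, adjusted p = 0.359). The hepatocyte markers Alb, Apoa1 and Ttr were at 42627, 5777 and 3552 CPM or more in all 12 libraries, and 4 of the 5 listed salivary or lacrimal gland markers that the tables hold were at 0 in all of them, the exception being Amy1. Each library held Y-linked reads, with Ddx3y at 56.3 to 75.4 CPM, and Xist did not exceed 0.0795 CPM.

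As RPKM, the 10 genes spanned a wide range of levels in wild-type liver. Deposited RPKM values at ZT2 put Mup7 first with 19888 ± 2092 (SD, n = 3), followed by Mup20 with 6429 ± 382 and Mup3 with 5912 ± 625. Mup11 stood at 4158 ± 455, Mup15 at 2201 ± 648, Mup17 at 1774 ± 679.8 and Mup1 at 1148 ± 90.4 RPKM. The lowest levels were 479 ± 57.7 in Mup12, 199.6 ± 35.2 in Mup21 and 119.6 ± 6.54 in Mup2. In this order the 3 libraries of Mup20 overlapped those of Mup3, those of Mup15 overlapped Mup17, and those of Mup17 overlapped Mup1, while all other neighbours were apart. The levels of the central copies carry the uncertainty of shared reads. At ZT14 Mup7 was again highest with 14202 ± 719.5 RPKM, and Mup3 with 5377 ± 231 stood above Mup20 with 4573 ± 447, the libraries of the 2 genes not overlapping.

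The central copies are described first, in CPM of total gene reads after TMM scaling, replicates 1 to 3 in turn. At ZT2, Mup7 read 22295, 18847 and 23375 CPM in the WT libraries against 18435, 2999 and 13063 in the TG libraries, and at ZT14 15379, 13731 and 15191 against 12058, 15689 and 1336. This is the most abundant copy, and outside the 2 libraries named above all its values were 12058 CPM or more. At ZT2, Mup15 read 2909, 1894 and 1633 CPM in the WT libraries against 2792, 40.3 and 1978 in the TG libraries, and at ZT14 1806, 1659 and 2045 against 1242, 1683 and 5.44. In those libraries Mup15 was at 40.3 and 5.44 CPM, with 137 reads in TG ZT14 replicate 3. At ZT2, Mup17 read 2519, 1612 and 1139 CPM in the WT libraries against 2746, 54.4 and 1895 in the TG libraries, and at ZT14 2041, 1677 and 2240.4 against 857, 1756 and 15.6. Mup17, whose reads are mostly unique, was next, and it was also low in WT ZT2 replicate 3 and TG ZT14 replicate 1.

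Mup1 and Mup12 were also lowest in those libraries. At ZT2, Mup1 read 2073, 1702 and 1891 CPM in the WT libraries against 1704, 210.0 and 1293 in the TG libraries, and at ZT14 1472, 1304 and 1495 against 937, 1320.5 and 76.2. At ZT2, Mup12 read 543, 425 and 433 CPM in the WT libraries against 376, 72.2 and 325 in the TG libraries, and at ZT14 316, 283 and 348 against 226, 349 and 24.99. In both genes all WT libraries at ZT14 were below all at ZT2. At ZT2, Mup11 read 7877, 6372 and 6274 CPM in the WT libraries against 7199.9, 2215 and 5768 in the TG libraries, and at ZT14 5626, 5347 and 6003 against 3853, 5128 and 1349.9. At ZT2, Mup2 read 204, 210.4 and 224 CPM in the WT libraries against 247, 99.7 and 272 in the TG libraries, and at ZT14 191, 205 and 233 against 141, 175 and 42.7. For Mup11 and Mup2, all TG libraries were below all WT libraries at ZT14, and at ZT2 the TG groups spread to both sides or into the WT range.

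The peripheral copies spread less. At ZT2, Mup20 read 6793, 5852 and 6002 CPM in the WT libraries against 7710.4, 3766 and 4157 in the TG libraries, and at ZT14 4178, 3878 and 4744 against 5809, 4386 and 3512. Mup20 overlapped between genotypes at both times, and TG ZT2 replicate 3 was nearly as low as replicate 2. At ZT2, Mup3 read 7128, 6944 and 5724 CPM in the WT libraries against 6988, 4716 and 5931 in the TG libraries, and at ZT14 5901, 5414 and 5989.7 against 5342, 6408 and 3473. Its lowest value was 3473 CPM, in TG ZT14 replicate 3. At ZT2, Mup21 read 147, 119 and 162 CPM in the WT libraries against 158, 120.2 and 93.3 in the TG libraries, and at ZT14 113, 76.2 and 118 against 139, 102 and 66.8. Mup21 was the exception among the 10: TG ZT2 replicate 2 lay inside the range of the others.

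**Figure D3:**
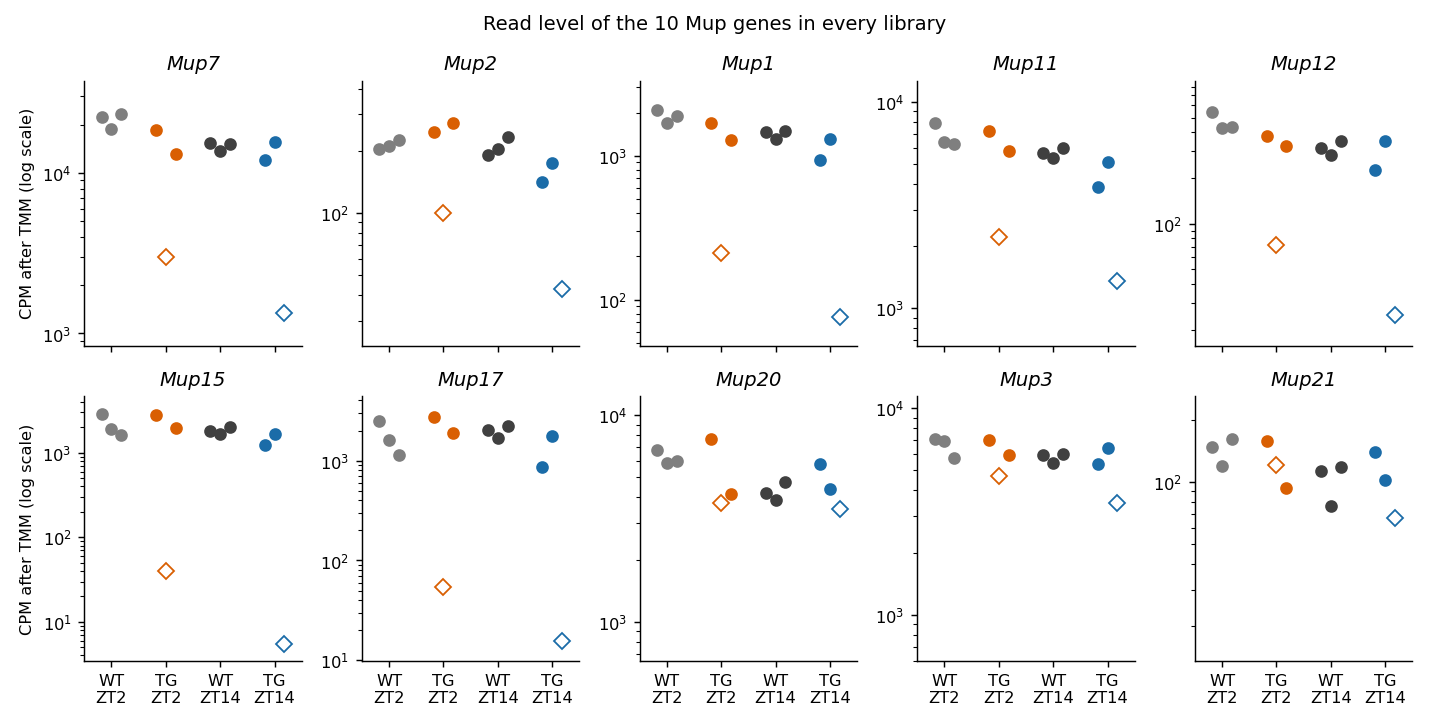
CPM of total gene reads after TMM scaling (log axis) for the 10 Mup genes in their order along chromosome 4, 1 point per library in WT and TG at ZT2 and ZT14. Open diamonds are TG ZT2 replicate 2 and TG ZT14 replicate 3, far below the rest in Mup15 (40.3 and 5.44 CPM) and near them in Mup20 (3766 and 3512 CPM).

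In both libraries the copies differed widely in how far they lay below the wild-type mean of the same time. Mup15 stood at 1.88% of that mean in TG ZT2 replicate 2 and at 0.296% in TG ZT14 replicate 3. Mup17 stood at 3.10% and 0.786%, Mup1 at 11.1% and 5.35%, Mup7 at 13.9% and 9.04%, and Mup12 at 15.5% and 7.92%. Mup11 kept 32.4% and 23.9%, and Mup2 46.8% and 20.4%. The peripheral copies kept most of their level, with 60.6% and 82.3% in Mup20, 71.5% and 60.2% in Mup3 and 84.3% and 65.2% in Mup21. Of the 10 genes, 9 were lower in both libraries than in all other 10, which held for 3.73% of the genes tested. These libraries were singled out by their Mup reads, so that count is a description.

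Position in the cluster was set beside these values. Mup15 and Mup17, with the lowest shares, lie to either side of Mup16, a copy outside the 10, which kept 6.65% and 4.64%. Mup10, the second most abundant copy by mean CPM and also outside the 10, lies between Mup1 and Mup11 and kept 56.4% and 42.3%. The 4 remaining TG libraries stayed nearer the wild-type means, the 10 genes having medians of 108%, 76.9%, 69.8% and 96.4% of them for replicates 1 and 3 of TG ZT2 and replicates 1 and 2 of TG ZT14, in that order.

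**Figure D4:**
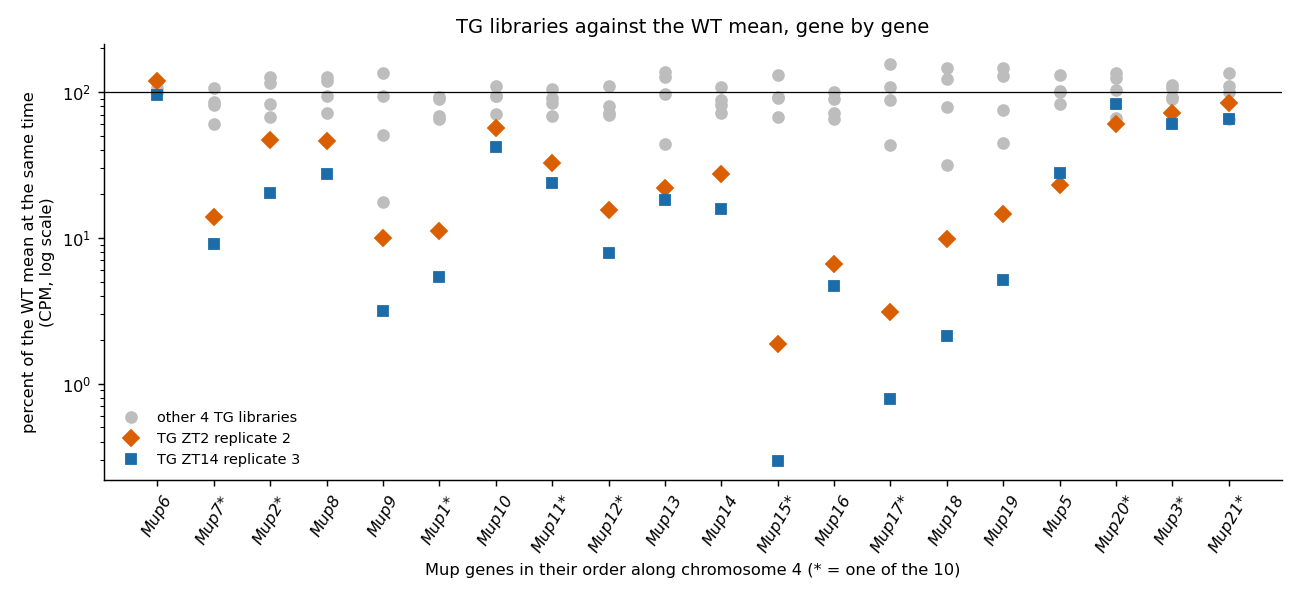
Level of each Mup gene with a mean of at least 1 CPM in the 6 TG libraries, as a percent of the WT mean at the same time (log axis), in order along chromosome 4, with asterisks on the 10 genes described. Mup15 and Mup17 reach 0.296% and 0.786% in TG ZT14 replicate 3, while Mup20, Mup3 and Mup21 stay above 60%.

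Unique reads were compared as CPM of unique gene reads, without TMM scaling. On this scale, Mup15 stood at 1.95% and 0.366% of the wild-type mean in the 2 libraries, Mup17 at 2.89% and 0.663%, and Mup20 at 62.2% and 82.5%. For Mup11 the kind of read mattered: as CPM without TMM scaling, total reads put it 2.92-fold and 4.04-fold below the mean, and unique reads 6.83-fold and 13.1-fold. Mup11 took 8.40% to 9.88% of all Mup reads in the other 10 libraries and 9.11% and 8.39% in these 2. Unique reads in introns, which come largely from unspliced RNA, were counted too. Mup15 had 350 to 542 of them in the other 10 libraries, 9 in TG ZT2 replicate 2 and 0 in TG ZT14 replicate 3, a count that allows up to 3. Mup3 had 1013 and 1011 against 1345 to 2766 elsewhere.

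Some other genes known to differ between male and female mouse liver also stood apart in these 2 libraries. The 23 listed genes higher in males, Mups left out, averaged -0.78 and -0.66 against the wild-type mean on the log2 scale, and the 15 tested of 24 genes higher in females averaged 1.4999 and 0.80. TG ZT2 replicate 3 leaned the same way, with -0.54 and 0.56. TG ZT14 replicate 2, with 5.78% Mup reads, was at 0.04 and 0.49, so a raised female-biased mean was not limited to libraries low in Mup reads. Of the 23 male-biased genes, 8 were lower in both libraries than in all other 10 and 1 was higher, and of the 15 female-biased genes 3 were higher and 0 lower, where 3.73% of all genes tested were lower and 4.43% higher. Cyp2a4, a steroid hydroxylase of female liver, was at 27.6 and 23.0 CPM against 0 to 1.39 elsewhere, with reads that its near copy Cyp2a5 may share. Serpina12, the adipokine vaspin, was at 3.57 and 2.11 CPM against 30.7 to 92.1. These genes were picked after their values were seen, and both are part of the list means above.

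Cell type markers were compared for the same libraries. Hepatocyte markers averaged 0.29 and 0.37 above the wild-type mean on the log2 scale, and their summed level was 68526 to 72115 CPM (WT) and 69265 to 83274 CPM (TG) among ZT2 libraries, and 67870.2 to 74898 CPM (WT) and 72438 to 86303 CPM (TG) among ZT14 libraries. These markers were not alike. Tat was at 1759 CPM in TG ZT2 replicate 2 against a WT mean of 741, and Pck1 at 2226 in TG ZT14 replicate 3 against 925. Alb was above the WT mean in both libraries, at 56132 and 56583 against 45029 and 46557. Apob was below it in both, at 3772 and 3526 against 4049 and 3690. Erythroid markers averaged 0.82 and 0.85 above the wild-type mean, and their sum was 276 to 349.5 CPM (WT) and 262 to 547 CPM (TG) among ZT2 libraries, and 238 to 270.1 CPM (WT) and 291 to 414 CPM (TG) among ZT14 libraries. Of these markers only Slc4a1, an erythrocyte anion exchanger, was at 0 in any library. The means in these 2 libraries were 0.31 and -0.05 for cholangiocyte markers, 0.30 and 0.46 for Kupffer cell or macrophage markers, 0.08 and 0.06 for endothelial, 0.25 and 0.37 for stellate cell or fibroblast and 0.77 and 0.36 for lymphocyte markers. The part of any of these in the Mup values was not tested.

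For TG ZT2 replicate 2 and TG ZT14 replicate 3, 4 genes were taken from the listed transcription factors and growth hormone signalling genes. The 12 growth hormone signalling genes averaged 0.04 and 0.42 there against the wild-type mean on the log2 scale. Single WT libraries ran from -0.49 to 0.52. In TG ZT14 replicate 3 this list held genes above the WT range and genes below it. The 20 listed factors averaged -0.21 and 0.03, with WT libraries from -0.25 to 0.30. Stat5b, which growth hormone activates, was at 90.1 and 46.6 CPM, where WT libraries held 90.2 to 115 at ZT2 and 54.3 to 74.3 at ZT14. Zhx2 was at 23.9 and 23.2 CPM, where WT libraries held 21.2 to 26.2 and 28.3 to 31.2. Both genes lay below the WT range in TG ZT14 replicate 3, and Stat5b also lay just below it in TG ZT2 replicate 2. Stat5b was below it as well in TG ZT14 replicate 2, at 52.5 CPM, a library with 5.78% Mup reads. Bcl6, a repressor in liver, was at 50.4 and 56.5 CPM, with WT at 43.2 to 89.7 and 57.0 to 73.3. Cux2, a factor of female mouse liver, was at 1.10 and 2.78 CPM, above the WT ranges of 0.705 to 1.01 and 0.429 to 0.818. TG ZT2 replicate 3 and TG ZT14 replicate 2 were above those ranges too, at 1.12 and 0.885 CPM. Cux2 was near the floor in every library, at 0.124 RPKM or less, so these values rest on few reads. None of the 4 was called for genotype at either time. Among listed factors outside these 4, Cebpa was at 319 and 367 CPM, below the WT ranges of 405.5 to 455 and 496 to 522. TG ZT2 replicates 1 and 3 were below the ZT2 range too, at 389.5 and 371 CPM. Hnf4a, at 576 and 662 CPM, lay within its WT ranges of 537.5 to 691 and 603 to 718.

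Overexpression of E4BP4 was compared with wild type at ZT2 over all libraries. All 10 genes had a lower mean in TG, and none passed the edgeR test, in which 0.0722% of the genes tested were called, 0.0525% higher and 0.0197% lower in TG. No member had an unadjusted p below 0.05. DESeq2 called 0 of the 10 and 0.367% of all genes, and limma-voom 0 of the 10 and 0.0722%. The log2 fold changes ran from -0.90 in Mup7 (SE 0.69, edgeR adjusted p = 0.812) to -0.05 in Mup2, with a median of -0.34, where all genes tested had a median of -0.003. Mup7 and Mup12 were lower in all TG libraries than in all WT libraries, as were 5.86% of the genes tested, where 6.25% were higher in that way. Mup12 had a log2 fold change of -0.86 (SE 0.69, edgeR adjusted p = 0.823).

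Without TG ZT2 replicate 2 and TG ZT14 replicate 3, the standard errors at ZT2 were smaller in all 10 genes. Both libraries were singled out by their Mup reads, so the smaller errors follow from that choice. The log2 fold change of Mup7 became -0.45 (SE 0.17, edgeR adjusted p = 0.716) and that of Mup12 -0.41 (SE 0.18, adjusted p = 0.734). Mup2, Mup15 and Mup17 turned to higher means in TG, with log2 fold changes of 0.29, 0.16 and 0.40. Again 0 of the 10 were called, against 0.0585% of genes, and 0 on unique reads, against 0.0685%.

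At ZT14 none of the 10 genes passed the genotype test either. Means were lower in TG for 8 of the 10 genes, with log2 fold changes down to -1.18 in Mup17 (SE 1.18, edgeR adjusted p = 0.857), and 0.10 in Mup20. The value of Mup17 was -0.60 without TG ZT14 replicate 3, -2.19 without TG ZT14 replicate 2 and -2.77 with limma-voom. That of Mup15, -0.91, was -0.33, -1.56 and -3.00 under the same settings. Mup3 turned from -0.18 to 0.027 without TG ZT14 replicate 3, and Mup21, at 0.00, had no stable sign. The median was -0.69, and over all genes tested 0.0075. No member was called by edgeR and none had an unadjusted p below 0.05, where edgeR called 0.0853% of all genes, 0.0459% higher and 0.0394% lower in TG. DESeq2 and limma-voom called 0 of the 10 too, against 0.335% and 0.0918% of all genes. Mup2 and Mup11 were lower in every TG library than in every WT library, which held for 6.32% of the genes tested, while 6.12% were higher in that way. Mup2 had a log2 fold change of -0.81 (SE 0.42, edgeR adjusted p = 0.718) and Mup11 of -0.72 (SE 0.43, adjusted p = 0.763). Without the 2 libraries these became -0.41 (SE 0.12, edgeR adjusted p = 0.662) and -0.34 (SE 0.16, adjusted p = 0.767), and Mup17 -0.61. Of the 10 genes 0 were called then, against 0.078% of genes, or 0.089% on unique reads.

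**Figure D5:**
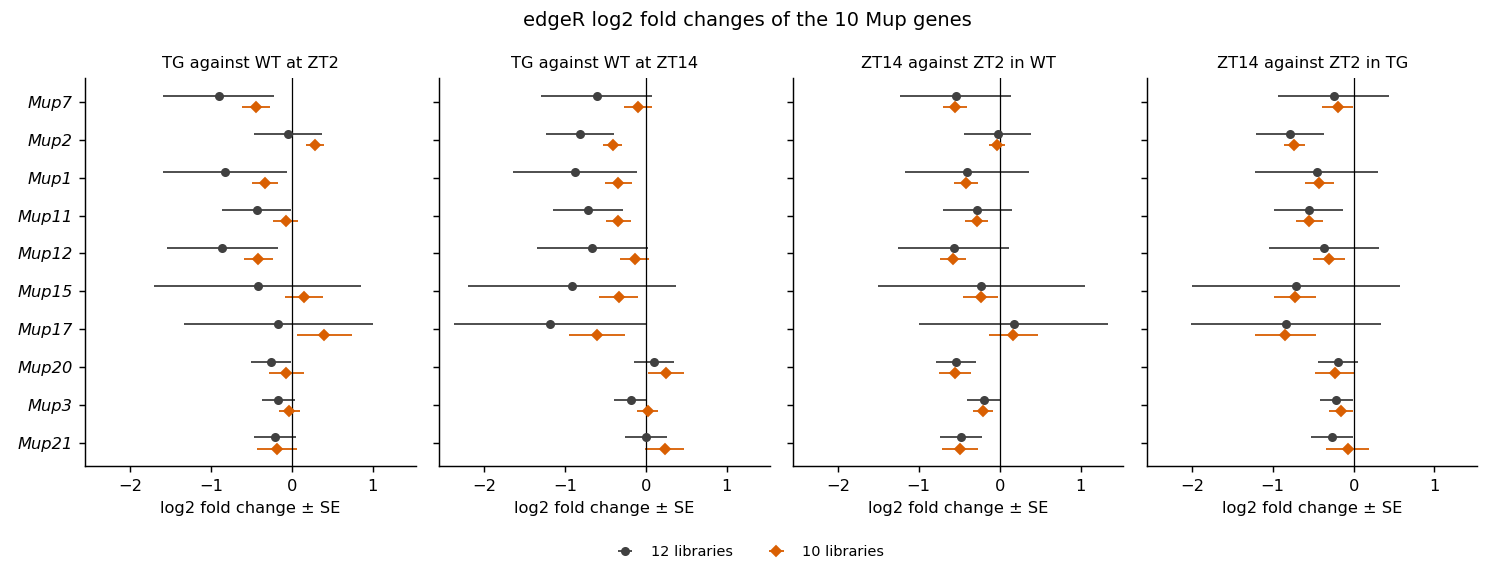
edgeR log2 fold changes with their standard errors for the 10 Mup genes in 4 comparisons, from all 12 libraries (circles) and without TG ZT2 replicate 2 and TG ZT14 replicate 3 (diamonds). Values to the left of 0 are lower in TG or at ZT14, and the errors shrink most for Mup15, from 1.28 to 0.24 at ZT2.

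Between ZT2 and ZT14 the summed Mup share of wild-type libraries was 7.11% ± 0.459 (SD, n = 3) at ZT2 and 6.03% ± 0.287 at ZT14, which is in the dark phase, and the libraries did not overlap. Mup1, Mup7, Mup11, Mup12, Mup20 and Mup21 were lower in all 3 libraries at ZT14 than in all 3 at ZT2, 6 of the 10 genes, as were 14% of the genes tested, while 15.4% were higher at ZT14 in that way. Of these, Mup1, Mup7, Mup11 and Mup12 are central copies whose total reads are mostly not unique, so they are not independent counts. Mup7 went from 21506 ± 2365 to 14767 ± 902 CPM (SD, n = 3), Mup20 from 6216 ± 505 to 4267 ± 440.1, and Mup12 from 467 ± 66.0 to 315 ± 32.5. None of the 10 was called in the fit to 12 libraries, where 9.17% of all genes were, 4.85% higher and 4.32% lower at ZT14. DESeq2 and limma-voom called 0 of the 10, against 11.2% and 8.99% of all genes. Mup20 alone had an unadjusted p below 0.05, with a log2 fold change of -0.54 (SE 0.25, edgeR adjusted p = 0.212). The median was -0.34 over the 10 genes and 0.0052 over all genes tested.

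The spread that this test used came in part from the TG libraries. The 2 that stood apart were singled out by their Mup reads, so smaller errors without them follow from that choice. Calls from fits without these 2 are a description. Fitted without the 2 that stood apart, Mup7 (log2 fold change -0.55, SE 0.15, edgeR adjusted p = 0.0450) and Mup12 (-0.58, SE 0.16, adjusted p = 0.0438) were called as lower at ZT14, 2 of the 10 where 10.3% of genes were called. With unique reads and without those libraries, a setting chosen after the data were seen, Mup1 (adjusted p = 0.0349) joined them, and 11.1% of genes were called. In a fit to the 6 WT libraries alone, Mup1, Mup7, Mup12 and Mup20 were lower at ZT14 with adjusted p of 0.0373, 0.0225, 0.0209 and 0.0179, where 9.07% of genes were called. Mup3 and Mup21 are the copies whose reads are nearly all unique. Over 12 libraries Mup3 had a log2 fold change of -0.19 (SE 0.20, edgeR adjusted p = 0.639). Mup21 had one of -0.48 (SE 0.26, edgeR adjusted p = 0.300), and Mup2 of -0.02.

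In TG livers none of the 10 genes separated ZT14 from ZT2, where 14.3% of genes were lower and 15.8% higher without overlap. edgeR called 0 of 10 where 12.2% of genes were called, 6.7% higher and 5.52% lower. No unadjusted p was below 0.05, and DESeq2 and limma-voom called 0 of the 10, against 13.9% and 11.9% of all genes. Mup2 had a log2 fold change of -0.79 (SE 0.42, edgeR adjusted p = 0.262). Without the 2 libraries, which leaves 2 a group, Mup2 went from 247 and 272 CPM at ZT2 to 141 and 175 at ZT14 and was called as lower (-0.73, SE 0.13, edgeR adjusted p = 0.00777), 1 of the 10 against 7.47% of genes. It was called on unique reads too (adjusted p = 0.00848), where 8.23% of genes were. These libraries were singled out by their Mup reads, so both calls are a description. Over 12 libraries the interaction, the TG change over time minus the WT change, passed the edgeR test in 0 of the 10, against 0.00656% of genes, with 0 unadjusted p below 0.05. DESeq2 and limma-voom called 0 of the 10 as well, against 0.144% and 0.00656% of genes. Without the 2 libraries it passed in 0, against 0.013% of genes, or 0.0205% on unique reads. Its median was -0.03, and it was -0.76 in Mup2 (SE 0.59, edgeR adjusted p = 0.922).

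The lists around the Mup genes gave few calls for genotype. Among 20 transcription factors tied to sex-biased liver genes or to Mup expression, Nfil3 rose in TG at ZT14 and 0 fell, and at ZT2 0 were called. None of 12 genes of growth hormone signalling, 23 male-biased genes, 15 tested female-biased genes or 9 tested lipocalins of liver and plasma was called for genotype at either time. Between ZT2 and ZT14 in WT, 5 male-biased genes fell and 0 rose, among them Hsd3b5, a steroid dehydrogenase (1.65 lower on the log2 scale, edgeR adjusted p = 0.00700) and Elovl3, a fatty acid elongase (2.94 lower, adjusted p = 3.72e-04), and 3 female-biased genes rose and 0 fell, among them Cyp2a5 (2.40 higher, edgeR adjusted p = 3.53e-05) and Fmo2, a monooxygenase (1.97 higher, adjusted p = 2.51e-05). Over all genes tested, 4.32% fell and 4.85% rose in that comparison. Stat5b fell by 0.63 in WT (edgeR adjusted p = 0.0111) and by 1.00 in TG (adjusted p = 6.34e-04). Of the 9 lipocalins 0 were called for time in either genotype.

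The genes whose course over the 12 libraries was most like that of the summed Mup reads were sought among 9319 genes outside the family with a mean of at least 5 CPM. Likeness was the root mean square difference of log2 CPM, each centred on its own mean, and the 8 closest were Nxpe2, Ces2c, Rhbg, Vnn1, Cyp2c50, Glul, Slc16a11 and Slc22a7, at 0.246 to 0.338. The median gene was at 0.681, and a gene with no change would be at 0.669. At ZT2, Nxpe2 read 20.1, 17.6 and 18.7 CPM in the WT libraries against 16.4, 3.96 and 20.1 in the TG libraries, and at ZT14 17.9, 13.6 and 17.7 against 12.6, 12.1 and 4.37, with both low values in the libraries that stood apart. Glul, glutamine synthetase of hepatocytes around the central vein, was at 456 and 489.7 CPM in the 2 libraries that stood apart and at 907 to 1246 in the others. By the same measure, single copies lay from 0.0745 (Mup11) to 2.02 (Mup15) from the family sum, of which each copy is itself a part. The measure used total reads, most of which were not unique in Mup11, so its likeness may depend on how shared reads were assigned. All genes were measured in the same 12 libraries, so these values are a description.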

How the data were processed

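Per the labels' protocols, poly(A) RNA from 850 ng of total RNA was made into libraries with a NEBNext Ultra kit. The deposited tables give, for each of 12 libraries, counts of total and unique reads per gene, exon, intron and junction, and RPKM and TPM values, all made by the authors. The build is mm10 or GRCm38 per the submitters' processing notes. The aligner, the strand setting and the handling of reads that fit several genes are not stated in the sources used here, so reads of copies or overlapping genes may be shared.

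The counts of total gene reads were fitted with edgeR 4.0.16 in R 4.3.3 (quasi-likelihood test, TMM, all 12 libraries in 4 groups), after edgeR's filter on low counts (10 as minimum, 15 in total). Benjamini-Hochberg adjustment ran over 15244 genes, with a threshold of 0.05, and the code was tested on simulated data. TPM was not used further, and RPKM served only to compare levels between genes. Log2 CPM for likeness used a pseudocount of 0.5. Transcripts were aligned with MAFFT 7.526, and tables were handled with pandas 2.3.3 in Python 3.11.15.

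Alternatives were DESeq2 1.42.0, limma 3.58.1, other scalings and filters, unique or exon reads, 6-library fits, a replicate block and libraries left out. Unique reads without 2 libraries were added after seeing the data, and those 2 libraries were themselves picked by their Mup reads. The members, lists and tests were chosen with earlier results of these data known. Genes were named by rule: the 10 members, other Mup rows of at least 1 CPM, up to 4 genes of each list by smallest p together with Nfil3, Stat5b, Bcl6, Cux2 and Zhx2, and the 8 genes most like the Mup sum. Cyp2a4 and Serpina12 fall outside the rule and were chosen after their values were seen. The values of Cebpa, Hnf4a, Alb, Apob, Tat, Pck1 and Alas2 in the 2 libraries that stood apart were likewise chosen after being seen.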

Additional observations from a re-analysis of the deposited data

How the results depend on the processing

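Counts of called members were 0 of 10 in each comparison under DESeq2, limma-voom, other scalings and filters, unique or exon reads and the stricter thresholds, and with any single library left out. They differed in 2 comparisons. For ZT14 against ZT2 in WT they were 2 without TG ZT2 replicate 2 and TG ZT14 replicate 3, 3 on unique reads without these libraries, and 4 in the fit to 6 libraries. For ZT14 against ZT2 in TG they were 1 without these 2 libraries on total and on unique reads. The 2 libraries were singled out by their Mup reads, so the counts without them are a description. The numbers do not pair the samples: deviations of 18 same-numbered pairs correlated at -0.253 to 0.154, 2 of them over 0.1, and with the replicate block 0 of 10 were called in each comparison. Among the log2 fold changes of single genes that were followed through these settings, signs reversed in 8, given below. Values outside that set could reverse too. The interaction in Mup1, -0.051 on total reads, was 0.15 on unique reads. That in Mup3, -0.018 over 12 libraries, was 0.051 without TG ZT2 replicate 2 and TG ZT14 replicate 3. At ZT2, Mup2, Mup15 and Mup17 became 0.29, 0.15 and 0.40 without TG ZT2 replicate 2, 0.29, 0.16 and 0.40 without both libraries, and 0.25, 0.12 and 0.41 on unique reads without both. At ZT14, Mup3 became 0.027 without TG ZT14 replicate 3, 0.023 without both and 0.012 on unique reads without both. Mup21 at ZT14, near 0, became -0.0015 with RLE size factors, -0.0013 with DESeq2, -0.030 with limma-voom, -0.00042 on unique reads, -0.0095 on exon reads and -0.019 with the replicate block. Mup2 in WT over time became 0.034 with library size alone. Mup20 at ZT14 reversed without TG ZT14 replicate 1, and Mup17 in WT over time without WT ZT2 replicate 3. With single libraries left out, the genotype values at ZT2 ran from -0.30 to 0.29 (Mup2), -1.09 to 0.15 (Mup15) and -0.85 to 0.40 (Mup17). At ZT14 they ran from -0.39 to 0.027 (Mup3), -0.11 to 0.26 (Mup20), -0.28 to 0.24 (Mup21), -1.56 to -0.33 (Mup15) and -2.19 to -0.60 (Mup17), and limma-voom gave -3.00 for Mup15 and -2.77 for Mup17. Over time in WT they ran from -0.10 to 0.040 (Mup2) and -0.056 to 0.52 (Mup17). Apart from the libraries left out, the cause was not tested. The summed Mup share by its construction follows the reads counted: on unique reads it was 3.32% (WT) and 2.54% (TG) among ZT2 libraries and 2.71% in WT at ZT14, and on exon reads 7.90% and 6.59% in WT at ZT2 and ZT14. With 3 libraries a group, 1 or 2 of which may decide a TG mean, a genotype difference in these genes was not detectable beyond the spread of replicates.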

Other observations

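Mup copies outside the 10 also spanned a wide range in the 2 libraries that stood apart. Of the 19 other Mup rows with a mean of at least 1 CPM, 13 were lower in both libraries than in all other 10, as were 3.73% of the genes tested. The libraries were singled out by their Mup reads, so this count is a description. Mup10, with a mean of 10774 CPM, stood at 56.4% and 42.3% of the wild-type mean of the same time, Mup14 at 27.4% and 15.7%, Mup19 at 14.6% and 5.10%, Mup18 at 9.80% and 2.11%, and Mup9 at 10.02% and 3.13%. On unique reads, as CPM without TMM scaling, Mup18 stood at 4.72% and 0.707%. Its unique share was 3.34% and 2.13% there against 5.73% to 7.14% elsewhere. Mup6 stood at 119.6% and 95.3%. Mup9 was also low in WT ZT2 replicate 3 and TG ZT14 replicate 1, at 76.9 and 57.9 CPM. Of the 23 other Mup rows tested, Mup-ps11 alone passed the edgeR test in any comparison, lower at ZT14 than at ZT2 in TG (log2 fold change -1.28, Benjamini-Hochberg adjusted p = 0.0365). In that comparison 12.2% of all genes were called, 5.52% as lower. Mup-ps11 had few reads, 34, 29 and 55 in TG at ZT2 and 18, 30 and 15 at ZT14. From 33.3% to 66.7% of them were unique.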
